A study of Mus musculus with 115 samples.

Results

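The antioxidant and glutathione genes are the enzymes and regulators that remove superoxide and peroxides and keep thiols reduced. They were taken by gene symbol from the amplicon panel, whatever their level or change: symbols that begin with Sod, Gpx or Prdx and a digit, or with Gsta, Gstm, Gstt, Gstp, Gsto, Gstk or Txn, and a list of named genes such as Cat, Nnt, Gsr, Gss, Gclc, Gclm, Nfe2l2 and Keap1. The rule found 62 genes among the 23930 amplicons of the panel. Of these, 58 passed the filter on low counts and were tested, while Gpx5, Gstt4, Prdx6b and Txndc8 did not. Gpx4, Prdx1, Mt2 and the Gstp genes are not analysed here.

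Superoxide leaking from the respiratory chain is turned into hydrogen peroxide by superoxide dismutases, and the peroxide is then removed by catalase, glutathione peroxidases and peroxiredoxins. Glutathione peroxidases draw on reduced glutathione, which glutamate-cysteine ligase and glutathione synthetase make and glutathione reductase recycles, whereas peroxiredoxins draw on the thioredoxin system. Many of these genes can be induced by the transcription factor NRF2 (gene Nfe2l2), which KEAP1 holds back in unstressed cells. Ant1, the heart and muscle isoform of the adenine nucleotide translocator (gene Slc25a4), exchanges ATP for ADP across the inner mitochondrial membrane, and its loss in mice is known for cardiomyopathy and raised mitochondrial peroxide production.

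RNA was measured in mouse hearts of the strain C57BL/6JEiJ (WT), of that strain lacking Ant1 (ANT1 -/-, here KO), and of that strain lacking Ant1 and carrying the mitochondrial DNA change ND6 P25L (here KO ND6). Every animal is labelled as having received 250000000000 vector genomes into the pericardium, either of AAV2/9Des-Gfp (control vector) or of AAV2/9Des-Gfp-mAnt1 (Ant1 vector). By these treatment labels no heart was free of virus or of the Gfp cassette. Titles of the control vector hearts carry the code NI and those of the Ant1 vector hearts IN, codes that the titles do not spell out. The 6 groups held 4 WT, 3 KO and 3 KO ND6 hearts with the control vector and 3 WT, 4 KO and 3 KO ND6 hearts with the Ant1 vector. Hearts are named here by the number in their titles, and hearts 20, 21 and 22 of the KO ND6 control group are other hearts than those so numbered in the KO Ant1 vector group. Collection at 1, 3, 6, 9 and 12 months after injection is given for the series and not for single hearts, so age could not be entered in any comparison. The vector names carry Des, and the labels do not name the cells it drives expression in. Hearts 61 and 91, of the KO ND6 genotype, have a title code for the Ant1 vector and a treatment label for the control vector. They entered the fit as a group of their own and no comparison.

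Each heart was sequenced as 2 to 8 amplicon libraries of 2893780 to 8531273 counts, which were summed per heart to totals of 16827518 to 54779297. Slc25a4 stood at 8464 to 11380.4 CPM (counts scaled to the heart's total times its TMM factor, the unit of all levels given) in the 7 WT hearts and at 0.219 to 2.03 CPM in the 6 Ant1-null control hearts. It stood at 174 to 241 CPM in the KO hearts with the Ant1 vector, at 66.7 and 55.6 CPM in KO ND6 hearts 5 and 37, and at 0.732 CPM in heart 8, labelled as having received the Ant1 vector. The female marker Xist stood at 0 to 0.206 CPM in all hearts but WT control heart 23 (1.76 CPM). The male marker Ddx3y stood at 196 to 273 CPM in all hearts. Xist thus lay near the floor, so the alternative fit with Xist as a covariate does not test for an effect of sex. The cardiomyocyte markers summed to 74232 to 90506 CPM over all hearts. Fibroblast markers summed to 2998 to 3193 CPM in WT and 2054 to 2462 CPM in KO hearts with the control vector, and 5 of the 10 were called lower. Hepatocyte markers summed to 112 to 434 CPM in the WT control hearts, highest in heart 23, and to at most 203 CPM in every other heart, and 9 of 12 tested were called lower in KO than in WT. Those 9 include Alb, at 159, 12.6, 10.8 and 0.248 CPM in the WT control hearts and at most 0.195 CPM in the KO control hearts. The hepatocyte sums include Pck1, at 38.9, 29.1, 80.8 and 199 CPM in WT control hearts 23, 24, 25 and 70. In heart 70 the whole sum was 361 CPM, and the adipocyte markers given below summed to 546 CPM. Which cells the Pck1 RNA came from was not tested. In whole tissue, fewer cells of a type and less RNA per cell cannot be told apart.

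Most of the tested genes were called in no comparison, which does not show that they were unchanged, and the changes that passed the test were under 2-fold except for Txndc2. Peroxiredoxin 2 was higher in the Ant1-null hearts in all 4 genotype comparisons against WT. Under either vector, glutathione synthetase, peroxiredoxin 6 and the transferase Gsto1 were higher in KO ND6 than in WT hearts. The transferases Gstt1, Gsta3 and Gstk1 were lower there. Gstt1 was also called lower in KO control hearts. In KO hearts with the Ant1 vector, Gstk1 was called lower and Gsto1 higher. No member was called between KO ND6 and KO control hearts. The superoxide dismutases, catalase, the glutathione peroxidases, Nfe2l2, Keap1, Nqo1, Hmox1, Gclc, Gclm, Srxn1 and Nnt were called in none of the 8 pairwise comparisons by edgeR's quasi-likelihood test at an adjusted p of 0.05. The map of log2 changes shows this by role.

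**Figure D1:**
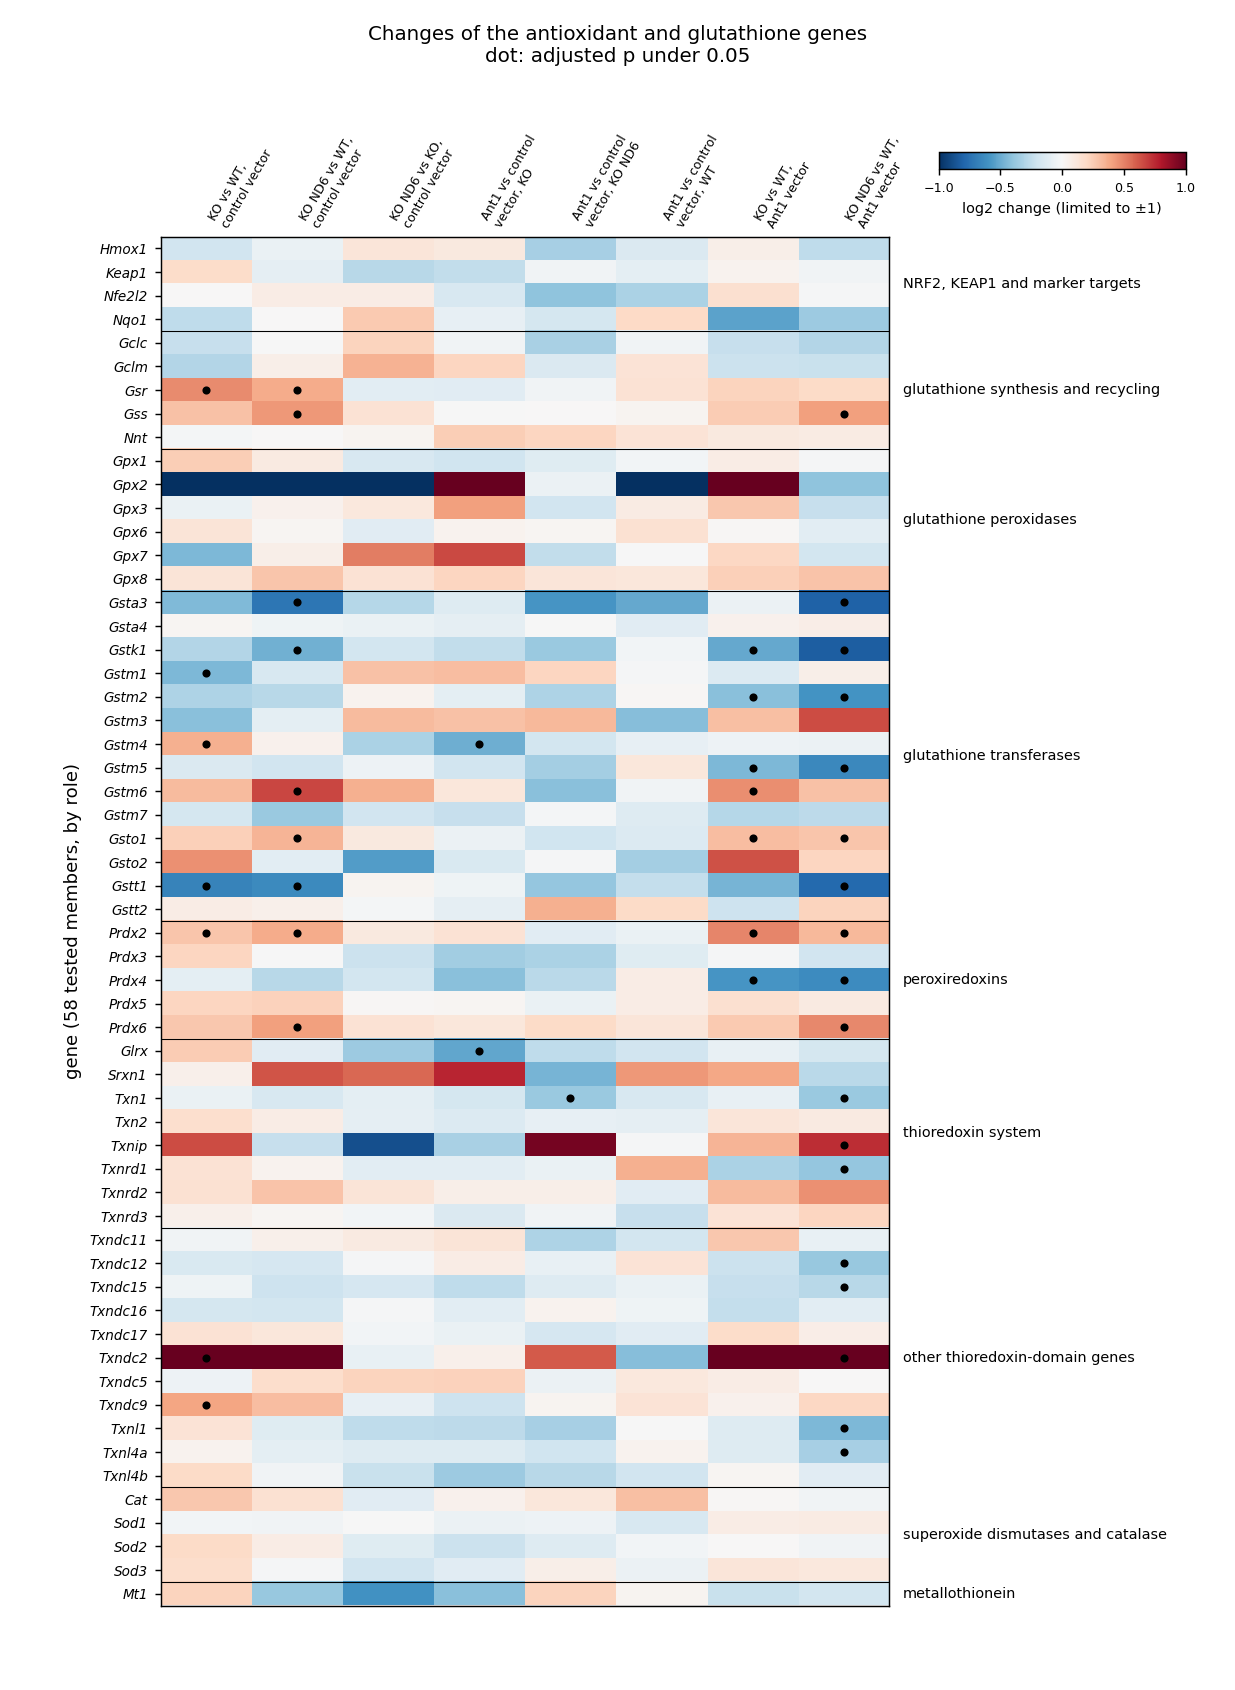
Log2 change of each of the 58 tested genes (rows, grouped by role) in the 8 pairwise comparisons (columns), with colour limited to ±1 and a dot where the edgeR adjusted p was under 0.05. Prdx2 carries a dot in all 4 genotype comparisons against WT, and the rows of NRF2, KEAP1, the glutathione peroxidases and the superoxide dismutases carry none.

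Without Ant1, under the control vector, 5 of 58 members were called higher and 2 lower than in WT, against a background of 8.19% and 6.23% of all 15403 tested genes. That is 12.1% of the members, and their median log2 change was 0.07 beside -0.03 over all genes. The count was 3 without KO heart 36 and 3 without KO heart 38. In KO ND6 hearts, 6 members were called higher and 3 lower than in WT, against 6.71% and 5.97% of all genes, or 15.5% of the members. This count was 5 without heart 21 and 4 without heart 22. Both shares lie close to the background of the same comparison. Between KO ND6 and KO hearts with the control vector, no member was called by edgeR, against 1.06% of all genes, and 1 was called by DESeq2. An unadjusted edgeR p under 0.05 was reached by 9 of 58 members and by 2231 of all 15403 genes.

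Under the Ant1 vector, KO hearts had 3 members called higher and 4 lower than WT, against 5.37% and 4.53% of all genes. That count of 7 was 4 without WT heart 83 and 2 without WT heart 80. KO ND6 hearts had 6 members called higher and 12 lower, against 10.8% and 8.71% of all genes, which makes 31.0% of the members called. Without WT heart 81 that count of 18 was 11, and without WT heart 80 it was 9. Median log2 changes of the members were 0.04 in KO and -0.05 in KO ND6 hearts, beside 0.01 and 0.00 over all genes. The Ant1 vector itself, against the control vector, was followed by 2 lower members in KO hearts (background of 3.27% lower), 1 lower member in KO ND6 hearts (0.779% lower) and none in WT hearts (0.117% in either direction). The KO count was 6 without KO heart 27, and the KO ND6 count was 0 without heart 20, 21 or 8 and 2 without heart 5 or 37. In the WT hearts 7 of 58 members and 1795 of all 15403 genes had an unadjusted edgeR p under 0.05, and DESeq2 called 0 members. In each genotype the hearts of the 2 vectors were sequenced in different tables of libraries, so vector and table cannot be told apart in those 3 comparisons. The KO ND6 and WT hearts with the Ant1 vector also share no table, and with the table as a covariate, which rests on the tables that other groups link, limma called 13 of the members there in place of 18. Only KO heart 35 shared tables with WT hearts under the control vector, and only KO heart 20 under the Ant1 vector. Among KO ND6 control hearts only heart 22 did, with WT heart 70. Genotype and table can thus be told apart only in part in those comparisons.

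NRF2, its inhibitor KEAP1 and the target genes Nqo1, Hmox1, Gclc, Gclm, Srxn1 and Txnrd1 were not called in the control vector hearts. These are not all the members that NRF2 can induce. Gsr was called higher in both Ant1-null groups there, and Gstm1 lower in KO hearts, as given below. Nfe2l2 stood at 99.5, 106, 103 and 121 in WT, 93.5, 116.7 and 113 in KO and 121, 119 and 99.8 in KO ND6 hearts, in CPM. Keap1, at 54.0, 52.2, 47.8 and 54.7 in WT, 54.6, 64.1 and 59.2 in KO and 46.1, 51.1 and 49.7 in KO ND6 hearts, was highest in KO heart 36. The KO against WT log2 changes were 0.00 ± 0.10 (edgeR adjusted p = 0.994) for Nfe2l2 and 0.19 ± 0.09 (edgeR adjusted p = 0.156) for Keap1, and the KO ND6 against WT changes were 0.07 ± 0.10 (edgeR adjusted p = 0.703) and -0.09 ± 0.09 (edgeR adjusted p = 0.548). In each gene the WT hearts overlapped with both Ant1-null groups, and for Keap1 every KO heart lay above every KO ND6 heart.

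Nqo1, a quinone reductase and a standard readout of NRF2 activity, had 104, 90.5, 113 and 69.5 in WT, 73.8, 87.5 and 75.5 in KO and 107, 100.4 and 76.5 in KO ND6 hearts, in CPM. Hmox1, the inducible haem oxygenase, had 13.6, 18.8, 32.2 and 16.0 in WT, 20.2, 18.2 and 14.7 in KO and 19.7, 19.9 and 18.0 in KO ND6 hearts, with WT heart 25 above all others. Their KO against WT log2 changes were -0.25 ± 0.20 (edgeR adjusted p = 0.433) and -0.19 ± 0.21 (edgeR adjusted p = 0.598). Nqo1 was also listed at 123.9, 89.9 and 111 CPM in WT and 90.3, 74.6, 72.6 and 61.8 CPM in KO hearts with the Ant1 vector, groups that overlapped, at a log2 change of -0.53 ± 0.20 (edgeR adjusted p = 0.0978).

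Gclc and Gclm, the catalytic and modifier subunits of glutamate-cysteine ligase, set the rate of glutathione synthesis. Gclc stood at 23.9, 27.5, 33.5 and 32.4 in WT, 24.5, 25.2 and 25.3 in KO and 31.9, 29.9 and 25.9 in KO ND6 hearts (CPM). Gclm stood at 21.6, 22.6, 25.3 and 16.7 in WT, 21.7, 14.7 and 16.4 in KO and 20.01, 22.8 and 24.5 in KO ND6 hearts (CPM). Log2 changes against WT were -0.23 ± 0.14 (edgeR adjusted p = 0.31) and -0.29 ± 0.16 (edgeR adjusted p = 0.224) in KO hearts and -0.00 ± 0.14 (edgeR adjusted p = 0.99) and 0.06 ± 0.15 (edgeR adjusted p = 0.859) in KO ND6 hearts. The WT hearts overlapped with both groups, and for Gclc every KO heart lay below every KO ND6 heart.

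Srxn1, sulfiredoxin, which repairs over-oxidised peroxiredoxins, varied the most of this group between hearts. Srxn1 had 14.7, 13.7, 20.4 and 15.7 in WT, 16.3, 17.2 and 16.7 in KO and 22.7, 22.4 and 29.7 in KO ND6 hearts (CPM) with the control vector. Srxn1 with the Ant1 vector had 14.9, 24.3 and 25.6 in WT, 32.4, 31.2, 39.6 and 11.02 in KO and 18.7, 16.6 and 18.9 in KO ND6 hearts. The KO ND6 control hearts all lay above the WT control hearts, at a log2 change of 0.63 ± 0.29 (edgeR adjusted p = 0.16), which did not pass. Among KO hearts with the Ant1 vector, hearts 20, 21 and 22 lay above every WT and KO control heart whereas heart 27 lay below all of them, and the vector comparison gave 0.76 ± 0.29 (edgeR adjusted p = 0.127).

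Promoter windows from 250 bases before to 50 bases after the RefSeq start (build GRCm38.p6) were found for 51 of the 62 members, as 64 windows. The core of the antioxidant response element, TGACNNNGC on either strand, through which NRF2 acts, was in 17.2% of these windows and in 12.4% of 32851 windows of all genes. The windows of Gclm, Srxn1, Gsta3, Gstm5 and Prdx2 are printed 5′ to 3′ on the gene's strand with that core in capitals, because the first pair are textbook NRF2 targets that were not called and the others were called in at least 1 genotype comparison.
Gclm (chr3:122245307-122245606, plus strand): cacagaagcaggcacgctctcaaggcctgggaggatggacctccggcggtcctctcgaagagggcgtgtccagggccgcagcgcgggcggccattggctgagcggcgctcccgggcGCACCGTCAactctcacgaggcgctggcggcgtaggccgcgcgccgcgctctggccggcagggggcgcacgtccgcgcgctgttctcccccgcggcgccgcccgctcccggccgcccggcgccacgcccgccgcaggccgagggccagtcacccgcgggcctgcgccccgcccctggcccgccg
Srxn1 (chr2:152105274-152105573, plus strand): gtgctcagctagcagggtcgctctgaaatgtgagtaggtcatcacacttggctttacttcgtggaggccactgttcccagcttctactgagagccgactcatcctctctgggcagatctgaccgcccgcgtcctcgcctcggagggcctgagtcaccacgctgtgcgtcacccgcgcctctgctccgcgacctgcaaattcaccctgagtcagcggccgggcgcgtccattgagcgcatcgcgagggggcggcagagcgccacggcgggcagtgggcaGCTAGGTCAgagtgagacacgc
Gsta3 (chr1:21240335-21240634, plus strand): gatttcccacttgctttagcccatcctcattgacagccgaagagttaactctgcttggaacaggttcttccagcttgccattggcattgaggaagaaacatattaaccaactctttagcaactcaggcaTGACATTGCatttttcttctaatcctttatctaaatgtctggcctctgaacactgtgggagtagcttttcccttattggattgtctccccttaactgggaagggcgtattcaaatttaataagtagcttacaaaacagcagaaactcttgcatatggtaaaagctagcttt
Gstm5 (chr3:107895604-107895903, plus strand): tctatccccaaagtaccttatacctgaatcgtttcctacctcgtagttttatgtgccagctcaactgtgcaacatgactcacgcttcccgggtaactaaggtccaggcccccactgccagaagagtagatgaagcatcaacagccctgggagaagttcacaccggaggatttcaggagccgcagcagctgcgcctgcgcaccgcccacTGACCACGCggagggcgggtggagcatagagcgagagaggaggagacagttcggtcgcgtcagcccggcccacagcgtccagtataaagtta
Prdx2 (chr8:84969372-84969671, plus strand): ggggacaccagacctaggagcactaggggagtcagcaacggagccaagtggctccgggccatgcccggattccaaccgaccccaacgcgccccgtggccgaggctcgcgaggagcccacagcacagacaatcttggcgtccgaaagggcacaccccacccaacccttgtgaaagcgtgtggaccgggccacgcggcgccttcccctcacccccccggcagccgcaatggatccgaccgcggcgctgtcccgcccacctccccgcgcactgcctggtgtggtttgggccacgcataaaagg
The core occurs in 1 place in each of the first 4 windows and in none of the Prdx2 window. Called and uncalled members are thus both among those whose window holds it, and a match in these letters is a description, not a measured binding site.

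**Figure D2:**
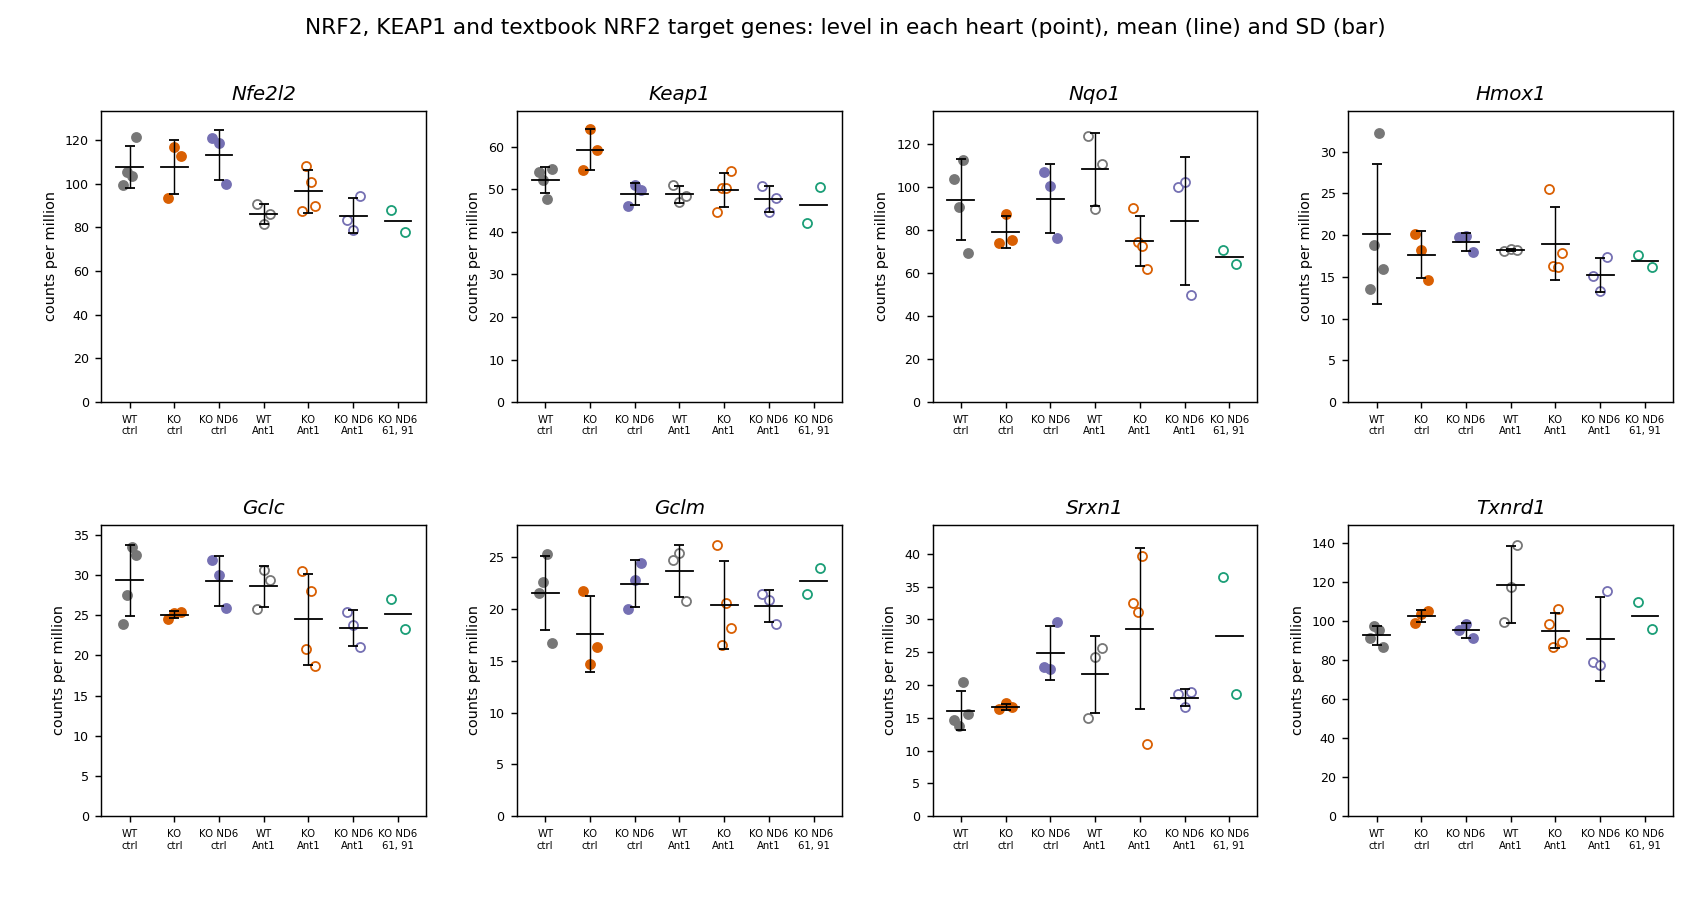
CPM values in each heart (points) for NRF2, KEAP1 and 6 textbook targets, by genotype and vector, with the group mean (line) and SD (bar, groups of 3 or 4 hearts); open points are Ant1 vector hearts and the last column hearts 61 and 91. WT control heart 25 is the highest for Hmox1, and KO Ant1 vector heart 27 is the lowest for Srxn1.

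In glutathione synthesis and recycling the calls fell on Gss and Gsr, and none on Gclc or Gclm. Gss, glutathione synthetase, which adds glycine to complete the tripeptide, had 21.7, 23.3, 24.8 and 20.4 in WT, 29.97, 25.9 and 26.9 in KO and 27.8, 32.4 and 31.4 in KO ND6 hearts (CPM) with the control vector. Gss with the Ant1 vector had 20.01, 25.1 and 23.9 in WT, 33.6, 24.6, 26.98 and 24.9 in KO and 29.9, 29.6 and 32.2 in KO ND6 hearts. In both sets every KO ND6 heart lay above every WT heart. Gss in KO ND6 hearts rose by 0.44 ± 0.11 log2 units (SE, 1.35-fold, edgeR adjusted p = 0.0101) under the control vector and by 0.41 ± 0.12 log2 units (SE, 1.33-fold, edgeR adjusted p = 0.0171) under the Ant1 vector. These comparisons share no heart. In KO hearts, which also lay above WT under the control vector, the log2 change was 0.29 ± 0.11 (edgeR adjusted p = 0.0754) and did not pass. Gss missed the threshold without heart 21, at an edgeR adjusted p of 0.061, within a range of 6.73e-08 to 0.061 over its alternatives. Under the Ant1 vector, Gss missed the threshold without heart 37 or 80, at an edgeR adjusted p of 0.0557 and 0.095, respectively, within a range of 5.37e-05 to 0.095 over its alternatives. Gss also missed it with the other groups left out of the fit.

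Gsr, glutathione reductase, regenerates reduced glutathione with NADPH. Gsr had 13.5, 12.5, 16.0 and 12.4 in WT, 16.1, 20.4 and 20.2 in KO and 17.6, 17.1 and 18.1 in KO ND6 hearts (CPM) with the control vector. All 6 Ant1-null control hearts lay above the highest WT control heart. Gsr rose by 0.48 ± 0.12 log2 units (SE, 1.39-fold, edgeR adjusted p = 0.00899) in KO and by 0.37 ± 0.12 log2 units (SE, 1.29-fold, edgeR adjusted p = 0.0439) in KO ND6 hearts, comparisons that share the WT hearts. Gsr with the Ant1 vector, at 15.3, 13.8 and 16.1 in WT, 16.5, 19.7, 18.6 and 15.3 in KO and 19.96, 16.5 and 15.1 in KO ND6 hearts, overlapped between genotypes and was not called. For the KO comparison, Gsr missed the threshold without heart 36 or 38, at an edgeR adjusted p of 0.0502 and 0.0543, respectively, within a range of 1.2e-05 to 0.0543 over its alternatives. For the KO ND6 comparison, Gsr missed the threshold without heart 23, 24, 20, 21, 70 or 22, at an edgeR adjusted p of 0.0796, 0.111, 0.105, 0.091, 0.114 and 0.152, respectively, within a range of 0.000699 to 0.214 over its alternatives. Gsr also missed it with no filter on low counts, Xist as a covariate, the library table as a covariate (limma adjusted p = 0.214) and heart 8 left out.

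Nnt, the mitochondrial transhydrogenase that supplies NADPH to both defence arms and that carries a known deletion in the C57BL/6J substrain, was read in every heart at 579 to 851 CPM. Nnt had 704, 648, 628 and 691 in WT, 659, 648 and 671 in KO and 702, 579 and 731 in KO ND6 hearts (CPM) with the control vector. Its log2 changes against WT were -0.02 ± 0.08 (edgeR adjusted p = 0.911) in KO and 0.01 ± 0.08 (edgeR adjusted p = 0.974) in KO ND6 hearts, with overlapping hearts. Where in the gene its amplicon lies is not stated in the labels.

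Among the glutathione peroxidases, 7 of which are on the panel and 6 were tested, none was called in any pairwise comparison. Gpx1, the main selenium-dependent peroxidase of cytosol and mitochondria, had 308, 273, 309.9 and 259 in WT, 420.5, 315 and 287 in KO and 295, 313 and 309.6 in KO ND6 hearts (CPM), with KO heart 35 above the rest. The log2 change was 0.24 ± 0.13 (edgeR adjusted p = 0.22) in KO and 0.09 ± 0.13 (edgeR adjusted p = 0.725) in KO ND6 hearts. Gpx3, the secreted plasma form, had 309.9, 402, 282 and 594 in WT, 334, 451 and 350.0 in KO and 387, 359.9 and 477 in KO ND6 hearts (CPM) and was highest in WT heart 70. Gpx6, Gpx7 and Gpx8 stood at or under 12.5 CPM in all hearts. Gpx2, a gut enzyme, was at or under 0.115 CPM except in WT control heart 70 (6.74 CPM), KO control heart 36 (0.552 CPM) and KO Ant1 vector heart 22 (1.64 CPM).

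Glutathione transferases, which join glutathione to electrophiles, are the largest role, with 14 tested of 15. Under the control vector 1 was higher and 2 were lower in KO hearts (8.19% and 6.23% of all genes), and 2 were higher and 3 lower in KO ND6 hearts (6.71% and 5.97%). With the Ant1 vector 2 were higher and 3 lower in KO hearts (5.37% and 4.53% of all genes), and 1 was higher and 5 lower in KO ND6 hearts (10.8% and 8.71%). Members of the Gstm, Gsta and Gstt subfamilies have near-identical copies, and how reads shared between copies were counted is not stated in the labels, so single values are uncertain to that extent.

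Gstt1, a theta class transferase, had 27.99, 23.6, 23.1 and 25.8 in WT, 15.2, 18.0 and 14.4 in KO and 17.9, 16.3 and 14.3 in KO ND6 hearts (CPM) with the control vector. Every Ant1-null control heart lay below every WT control heart. Gstt1 fell by 0.66 ± 0.16 log2 units (SE, 1.58-fold, edgeR adjusted p = 0.00789) in KO and by 0.63 ± 0.16 log2 units (SE, 1.55-fold, edgeR adjusted p = 0.0127) in KO ND6 hearts. Gstt1 with the Ant1 vector had 28.1, 18.2 and 17.8 in WT, 12.2, 16.6, 15.6 and 17.0 in KO and 15.02, 12.8 and 9.56 in KO ND6 hearts. There the KO and the KO ND6 hearts lay below all WT hearts. Gstt1 fell by 0.78 ± 0.17 log2 units (SE, 1.71-fold, edgeR adjusted p = 0.00361) in KO ND6 hearts, whereas the KO change of -0.47 ± 0.16 (edgeR adjusted p = 0.0697) did not pass. For KO, Gstt1 missed the threshold without heart 38, at an edgeR adjusted p of 0.051, within a range of 3.13e-10 to 0.051 over its alternatives. For KO ND6 with the control vector, Gstt1 missed the threshold without heart 22, at an edgeR adjusted p of 0.0827, within a range of 4.64e-09 to 0.0827 over its alternatives. Gstt1 also missed it with Xist as a covariate. With the Ant1 vector, Gstt1 stayed past the threshold without any 1 of the hearts, and its adjusted p ranged from 3.76e-09 to 0.0375 over its alternatives. Gstt1 is abundant in liver, and hepatocyte markers, Pck1 included, summed to 112 to 434 CPM in WT, 68.0 to 90.4 CPM in KO and 45.3 to 90.0 CPM in KO ND6 control hearts. With the Ant1 vector, where none of them was called in either genotype comparison, WT heart 80 had the highest Gstt1 value of all hearts at a marker sum of 51.5 CPM. Their part in the Gstt1 differences was not tested.

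Gstk1, the kappa class transferase of mitochondria and peroxisomes, had 58.2, 58.2, 44.8 and 39.2 in WT, 34.9, 42.4 and 45.4 in KO and 40.4, 33.7 and 33.9 in KO ND6 hearts (CPM) with the control vector. Gstk1 with the Ant1 vector had 54.1, 40.9 and 52.9 in WT, 32.6, 38.6, 36.9 and 29.9 in KO and 34.0, 26.96 and 22.6 in KO ND6 hearts. The WT and KO ND6 control groups overlapped through WT heart 70, whereas the Ant1 vector groups did not overlap with WT. Gstk1 fell by 0.48 ± 0.15 log2 units (SE, 1.39-fold, edgeR adjusted p = 0.0415) in KO ND6 control hearts, by 0.51 ± 0.15 log2 units (SE, 1.43-fold, edgeR adjusted p = 0.033) in KO hearts with the Ant1 vector and by 0.82 ± 0.16 log2 units (SE, 1.77-fold, edgeR adjusted p = 0.0013) in KO ND6 hearts with the Ant1 vector. With the control vector, Gstk1 missed the threshold without heart 23, 24, 21 or 22, at an edgeR adjusted p of 0.116, 0.105, 0.139 and 0.159, respectively, within a range of 1.78e-06 to 0.182 over its alternatives. Gstk1 also missed it with Xist as a covariate. For KO with the Ant1 vector, Gstk1 missed the threshold without heart 27, 83, 20 or 80, at an edgeR adjusted p of 0.0826, 0.135, 0.0715 and 0.137, respectively, within a range of 8.76e-05 to 0.137 over its alternatives. For KO ND6 with the Ant1 vector, Gstk1 stayed past the threshold without any 1 of the hearts, and its adjusted p ranged from 2.22e-10 to 0.0118 over its alternatives.

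Gsta3, an alpha class transferase, had 36.8, 32.8, 41.2 and 58.8 in WT, 39.0, 31.5 and 23.3 in KO and 26.6, 27.8 and 22.8 in KO ND6 hearts (CPM) with the control vector, highest in WT heart 70. Gsta3 with the Ant1 vector had 31.4, 34.0 and 24.01 in WT, 22.5, 23.8, 29.2 and 38.5 in KO and 13.7, 15.2 and 21.9 in KO ND6 hearts. The KO ND6 hearts lay below all WT hearts under either vector. Gsta3 fell by 0.72 ± 0.22 log2 units (SE, 1.65-fold, edgeR adjusted p = 0.0315) under the control vector and by 0.80 ± 0.23 log2 units (SE, 1.75-fold, edgeR adjusted p = 0.0193) under the Ant1 vector. For the first, Gsta3 missed the threshold without heart 20, 21, 70 or 22, at an edgeR adjusted p of 0.0782, 0.0696, 0.108 and 0.137, respectively, within a range of 6e-07 to 0.137 over its alternatives. For the second, Gsta3 missed the threshold without heart 81, 5, 8 or 80, at an edgeR adjusted p of 0.0721, 0.0794, 0.0711 and 0.0589, respectively, within a range of 1.79e-06 to 0.0794 over its alternatives. Adipocyte markers, 8 genes none of which was at 0, summed to 94.9 to 546 CPM in WT and 87.2 to 229.7 CPM in KO ND6 control hearts, with 546 CPM in heart 70, and to 66.0 to 96.6 and 35.3 to 93.2 CPM with the Ant1 vector. Their part in the Gsta3 difference was not tested.

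The mu class transferases moved in both directions. Gstm1 had 268, 227, 239 and 294 in WT, 207, 172.3 and 184 in KO and 212.2, 243 and 235 in KO ND6 hearts (CPM) with the control vector, and all KO hearts lay below all WT hearts. Gstm1 fell by 0.45 ± 0.10 log2 units (SE, 1.369-fold, edgeR adjusted p = 0.00417) in KO hearts. Gstm1 stayed past the threshold without any 1 of the hearts, and its adjusted p ranged from 3.65e-09 to 0.0351 over its alternatives. Gstm4 had 16.2, 17.9, 15.9 and 14.4 in WT, 19.2, 21.6 and 21.1 in KO and 16.9, 16.9 and 16.0 in KO ND6 hearts (CPM), with the KO hearts above the WT hearts. Gstm4 rose by 0.36 ± 0.09 log2 units (SE, 1.28-fold, edgeR adjusted p = 0.00949) in KO hearts. Gstm4 stayed past the threshold without any 1 of the hearts and missed it with the library table as a covariate (limma adjusted p = 0.12), within a range of 2.37e-05 to 0.12 over its alternatives.

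Gstm5 with the Ant1 vector had 64.0, 55.9 and 57.3 in WT, 46.0, 43.0, 44.1 and 39.6 in KO and 41.1, 36.4 and 35.7 in KO ND6 hearts (CPM), so that neither Ant1-null group overlapped with WT. Gstm5 fell by 0.45 ± 0.09 log2 units (SE, 1.368-fold, edgeR adjusted p = 0.00216) in KO and by 0.65 ± 0.09 log2 units (SE, 1.57-fold, edgeR adjusted p = 8.42e-05) in KO ND6 hearts. Gstm5 with the control vector had 59.0, 61.8, 50.4 and 47.5 in WT, 49.8, 49.6 and 48.7 in KO and 46.1, 49.9 and 47.4 in KO ND6 hearts, where the log2 changes were -0.15 ± 0.09 (edgeR adjusted p = 0.281) and -0.19 ± 0.09 (edgeR adjusted p = 0.158). Under the Ant1 vector, Gstm5 stayed past the threshold without any 1 of the hearts, and its adjusted p ranged from 3.66e-08 to 0.0423 over its alternatives. For KO ND6, Gstm5 stayed past the threshold without any 1 of the hearts, and its adjusted p ranged from 5.53e-14 to 0.00619 over its alternatives.

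Gstm2 with the Ant1 vector had 307, 297 and 308 in WT, 257, 198, 240.0 and 214 in KO and 193, 209.6 and 199 in KO ND6 hearts (CPM), again without overlap with WT. Gstm2 fell by 0.42 ± 0.11 log2 units (SE, 1.34-fold, edgeR adjusted p = 0.0154) in KO and by 0.60 ± 0.12 log2 units (SE, 1.51-fold, edgeR adjusted p = 0.00107) in KO ND6 hearts. For KO, Gstm2 missed the threshold without heart 83, 21 or 80, at an edgeR adjusted p of 0.0594, 0.0527 and 0.0527, respectively, within a range of 3.01e-08 to 0.0594 over its alternatives. For KO ND6, Gstm2 stayed past the threshold without any 1 of the hearts, and its adjusted p ranged from 2.11e-14 to 0.00614 over its alternatives.

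Gstm6, a further mu class transferase, had 4.91, 5.12, 4.56 and 5.20 in WT, 6.08, 6.08 and 6.31 in KO and 8.37, 7.19 and 8.07 in KO ND6 hearts (CPM) with the control vector. Gstm6 with the Ant1 vector had 5.41, 4.29 and 4.84 in WT, 6.40, 6.37, 7.34 and 6.56 in KO and 5.04, 6.73 and 5.91 in KO ND6 hearts. All KO hearts of either vector and all KO ND6 control hearts lay above every WT heart. Gstm6 rose by 0.67 ± 0.14 log2 units (SE, 1.59-fold, edgeR adjusted p = 0.00281) in KO ND6 control hearts and by 0.47 ± 0.14 log2 units (SE, 1.38-fold, edgeR adjusted p = 0.0429) in KO hearts with the Ant1 vector. In the former, Gstm6 stayed past the threshold without any 1 of the hearts, and its adjusted p ranged from 7.3e-09 to 0.0193 over its alternatives. In the latter, Gstm6 missed the threshold without heart 27, 81, 83, 20, 21, 22 or 80, at an edgeR adjusted p of 0.0505, 0.18, 0.12, 0.0577, 0.06, 0.0998 and 0.0523, respectively, within a range of 0.000282 to 0.258 over its alternatives. Gstm6 also missed it with no filter on low counts, the other groups left out of the fit, Xist as a covariate, hearts 61 and 91 as Ant1 vector hearts, the library table as a covariate (limma adjusted p = 0.258) and hearts 27 and 37 left out.

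Gsto1, the omega class transferase, which reduces mixed disulfides of proteins with glutathione, had 176, 184, 169.8 and 187.7 in WT, 194, 222 and 219 in KO and 224, 228 and 228 in KO ND6 hearts (CPM) with the control vector. Gsto1 with the Ant1 vector had 167, 147.7 and 176 in WT, 226, 197.4, 198 and 189.1 in KO and 209, 211.6 and 172.2 in KO ND6 hearts. KO and KO ND6 control hearts and KO Ant1 vector hearts lay above all WT hearts of the same vector. Gsto1 rose by 0.34 ± 0.09 log2 units (SE, 1.26-fold, edgeR adjusted p = 0.0127) in KO ND6 control hearts, by 0.31 ± 0.09 log2 units (SE, 1.24-fold, edgeR adjusted p = 0.0264) in KO hearts with the Ant1 vector and by 0.27 ± 0.09 log2 units (SE, 1.21-fold, edgeR adjusted p = 0.0411) in KO ND6 hearts with the Ant1 vector, where heart 37 overlapped with WT. In KO control hearts the log2 change was 0.24 ± 0.09 (edgeR adjusted p = 0.0673). With the control vector, Gsto1 stayed past the threshold without any 1 of the hearts and missed it with the library table as a covariate (limma adjusted p = 0.0779), within a range of 5.67e-07 to 0.0779 over its alternatives. For KO with the Ant1 vector, Gsto1 missed the threshold without heart 81, 20 or 80, at an edgeR adjusted p of 0.139, 0.081 and 0.0647, respectively, within a range of 1.25e-05 to 0.139 over its alternatives. Gsto1 also missed it with the other groups left out of the fit. For KO ND6 with the Ant1 vector, Gsto1 missed the threshold without heart 81, 5, 8 or 80, at an edgeR adjusted p of 0.193, 0.135, 0.152 and 0.078, respectively, within a range of 0.00208 to 0.193 over its alternatives. Gsto1 also missed it with no filter on low counts, the other groups left out of the fit, hearts 61 and 91 as control vector hearts and libraries 80a and 80b added.

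**Figure D3:**
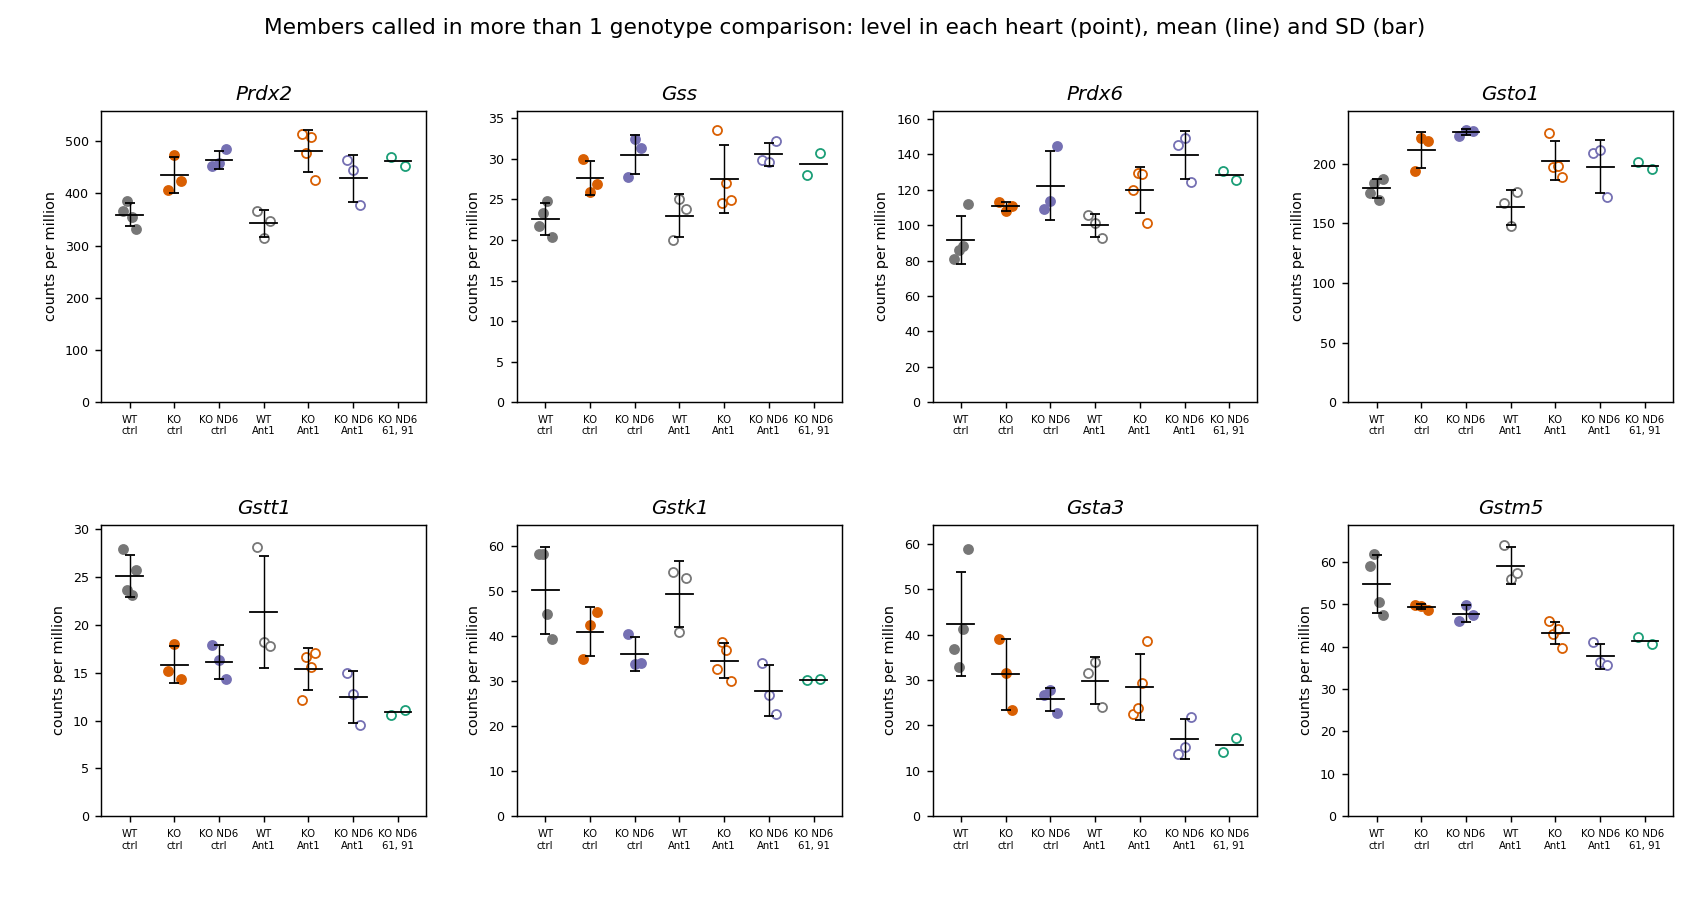
CPM values in each heart (points) for 8 genes called in more than 1 genotype comparison, by genotype and vector, with the group mean (line) and SD (bar, groups of 3 or 4 hearts). Prdx2 lies at 315 to 386 in WT hearts and at 377 to 514 in Ant1-null hearts, and Gstt1 lies below the WT control hearts in every Ant1-null heart.

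Peroxiredoxins, thiol peroxidases recharged by thioredoxin or glutathione, held the member that was called most often. Prdx2, the abundant cytosolic form, had 366, 386, 355 and 331 in WT, 407, 474 and 424 in KO and 452, 457 and 484 in KO ND6 hearts (CPM) with the control vector. Prdx2 with the Ant1 vector had 366, 315 and 347 in WT, 514, 477, 508 and 425 in KO and 463, 445 and 377 in KO ND6 hearts. Under either vector all Ant1-null hearts lay above all WT hearts. Prdx2 rose by 0.28 ± 0.09 log2 units (SE, 1.21-fold, edgeR adjusted p = 0.0354) in KO and by 0.37 ± 0.09 log2 units (SE, 1.29-fold, edgeR adjusted p = 0.00712) in KO ND6 control hearts. Prdx2 under the Ant1 vector rose by 0.49 ± 0.09 log2 units (SE, 1.40-fold, edgeR adjusted p = 0.00106) in KO and by 0.32 ± 0.09 log2 units (SE, 1.25-fold, edgeR adjusted p = 0.0183) in KO ND6 hearts. The Ant1 vector comparisons share no heart with the control vector comparisons, and Prdx2 was the only member called in the same direction in both KO comparisons. For KO control hearts, Prdx2 missed the threshold without heart 23, 25, 36, 38 or 70, at an edgeR adjusted p of 0.0547, 0.0701, 0.163, 0.0751 and 0.097, respectively, within a range of 8.89e-06 to 0.163 over its alternatives. Prdx2 also missed it with no filter on low counts, the other groups left out of the fit and Xist as a covariate. For KO ND6 control hearts, Prdx2 stayed past the threshold without any 1 of the hearts, and its adjusted p ranged from 1.95e-08 to 0.0473 over its alternatives. In KO hearts with the Ant1 vector, Prdx2 stayed past the threshold without any 1 of the hearts, and its adjusted p ranged from 4.71e-12 to 0.0127 over its alternatives. In KO ND6 hearts with the Ant1 vector, Prdx2 missed the threshold without heart 81, 5 or 8, at an edgeR adjusted p of 0.0942, 0.0819 and 0.0639, respectively, within a range of 3.04e-05 to 0.0942 over its alternatives. Prdx2 also missed it with the other groups left out of the fit.

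Prdx2 lies on chromosome 8 at 84969622 to 84974811 (GRCm38.p6), 38.8 Mb from Slc25a4 and 128 kb from Calr. Calr, the calreticulin gene, stood at 556, 492, 497 and 519.5 CPM in the WT control hearts and at 2.43 to 4.58 CPM in the Ant1-null hearts of the 6 groups. Of the 369 tested genes between 30 and 95 Mb of chromosome 8, 25.7% were called in KO and 26.0% in KO ND6 control hearts, beside 14.2% and 12.4% on other chromosomes. With the Ant1 vector the shares were 23.6% and 30.4% beside 9.64% and 19.3%. Gsr, Hmox1 and Mt1 lie in the same interval, and Gsr was called while Hmox1 and Mt1 were not. The bounds of the interval were set by hand. The chromosome 8 members Nqo1 and Txnl4b lie outside them and were not called. Whether position beside the knockout allele has a part in the Prdx2 and Gsr differences was not tested.

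Prdx6, the peroxiredoxin that also reduces phospholipid peroxides, had 81.1, 86.2, 88.1 and 112 in WT, 113, 108.1 and 111 in KO and 108.9, 114 and 144 in KO ND6 hearts (CPM) with the control vector. Prdx6 with the Ant1 vector had 106, 100.99 and 92.6 in WT, 119.97, 129, 129 and 101.2 in KO and 146, 149.2 and 124.1 in KO ND6 hearts. WT control heart 70 overlapped with the KO ND6 control hearts, whereas with the Ant1 vector the KO ND6 hearts lay above all WT hearts. Prdx6 in KO ND6 hearts rose by 0.41 ± 0.12 log2 units (SE, 1.33-fold, edgeR adjusted p = 0.0211) under the control vector and by 0.48 ± 0.12 log2 units (SE, 1.40-fold, edgeR adjusted p = 0.00919) under the Ant1 vector. Under the control vector, Prdx6 missed the threshold without heart 23, 24 or 22, at an edgeR adjusted p of 0.064, 0.0581 and 0.186, respectively, within a range of 7.12e-06 to 0.186 over its alternatives. Prdx6 also missed it with the other groups left out of the fit and Xist as a covariate. Under the Ant1 vector, Prdx6 missed the threshold without heart 83, at an edgeR adjusted p of 0.0506, within a range of 3.25e-05 to 0.0506 over its alternatives.

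Prdx4, the peroxiredoxin of the endoplasmic reticulum, went the other way under the Ant1 vector, at 15.1, 9.24 and 13.6 in WT, 8.36, 9.12, 8.43 and 7.57 in KO and 9.72, 9.26 and 5.62 in KO ND6 hearts (CPM). Prdx4 fell by 0.59 ± 0.17 log2 units (SE, 1.502-fold, edgeR adjusted p = 0.0338) in KO and by 0.63 ± 0.19 log2 units (SE, 1.54-fold, edgeR adjusted p = 0.0216) in KO ND6 hearts, and WT heart 81 overlapped with the KO ND6 hearts. For KO, Prdx4 missed the threshold without heart 27, 83, 20, 22 or 80, at an edgeR adjusted p of 0.0749, 0.137, 0.0601, 0.0637 and 0.179, respectively, within a range of 0.000928 to 0.179 over its alternatives. Prdx4 also missed it with the other groups left out of the fit and the library table as a covariate (limma adjusted p = 0.0804). For KO ND6, Prdx4 missed the threshold without heart 37, 83 or 80, at an edgeR adjusted p of 0.12, 0.0823 and 0.114, respectively, within a range of 2.66e-05 to 0.12 over its alternatives. Prdx4 also missed it with the other groups left out of the fit, the library table as a covariate (limma adjusted p = 0.0517) and hearts 27 and 37 left out.

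The mitochondrial peroxiredoxins were not called. Prdx3, the peroxidase confined to the mitochondrial matrix, had 237, 219, 201 and 188.1 in WT, 215, 273 and 247 in KO and 214, 221 and 199 in KO ND6 hearts (CPM). Prdx5, found in mitochondria, peroxisomes and cytosol, had 478, 477, 467 and 339.5 in WT, 494, 563 and 476 in KO and 569.8, 537 and 443 in KO ND6 hearts (CPM) and was lowest in WT heart 70. Log2 changes were 0.21 ± 0.10 (edgeR adjusted p = 0.184) and 0.21 ± 0.12 (edgeR adjusted p = 0.25) in KO and -0.00 ± 0.10 (edgeR adjusted p = 0.996) and 0.23 ± 0.12 (edgeR adjusted p = 0.229) in KO ND6 hearts, with overlapping groups.

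In the thioredoxin system the mitochondrial pair was likewise not called. Txn2, mitochondrial thioredoxin, had 489, 507, 446 and 406 in WT, 523, 518 and 518 in KO and 501, 494 and 468 in KO ND6 hearts (CPM). Txnrd2, its selenium-dependent reductase, had 7.38, 8.60, 7.67 and 7.64 in WT, 7.32, 9.58 and 9.12 in KO and 9.22, 9.10 and 10.2 in KO ND6 hearts (CPM). Log2 changes were 0.17 ± 0.07 (edgeR adjusted p = 0.135) and 0.15 ± 0.18 (edgeR adjusted p = 0.642) in KO and 0.08 ± 0.07 (edgeR adjusted p = 0.557) and 0.28 ± 0.18 (edgeR adjusted p = 0.351) in KO ND6 hearts. KO Txn2 values lay above all WT values by less than the test required.

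Txn1, cytosolic thioredoxin, had 360.0, 364, 345 and 330.3 in WT, 310.2, 373 and 319 in KO and 322, 310.0 and 306 in KO ND6 hearts (CPM) with the control vector. Txn1 with the Ant1 vector had 343, 278 and 317 in WT, 289, 324, 309 and 264 in KO and 259, 243 and 221 in KO ND6 hearts. KO ND6 hearts with the Ant1 vector were the lowest of all groups. Txn1 fell by 0.37 ± 0.09 log2 units (SE, 1.30-fold, edgeR adjusted p = 0.0375) from the control to the Ant1 vector in KO ND6 hearts and by 0.37 ± 0.09 log2 units (SE, 1.30-fold, edgeR adjusted p = 0.0087) against WT hearts with the Ant1 vector, comparisons that share the 3 KO ND6 hearts. For the vector comparison, Txn1 missed the threshold without heart 20, 21, 37, 8 or 22, at an edgeR adjusted p of 0.142, 0.122, 0.111, 0.0869 and 0.076, respectively, within a range of 1.48e-07 to 0.164 over its alternatives. Txn1 also missed it with no filter on low counts, the other groups left out of the fit, hearts 61 and 91 as Ant1 vector hearts, hearts 61 and 91 as control vector hearts and hearts 27 and 37 left out. For the genotype comparison, Txn1 missed the threshold without heart 80, at an edgeR adjusted p of 0.0562, within a range of 5.87e-06 to 0.0562 over its alternatives.

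Txnrd1, the cytosolic thioredoxin reductase and another NRF2 target, had 91.4, 97.7, 95.4 and 86.6 in WT, 99.2, 103 and 105 in KO and 95.6, 98.6 and 91.4 in KO ND6 hearts (CPM) with the control vector. Txnrd1 with the Ant1 vector had 99.5, 118 and 139 in WT, 98.7, 86.6, 106 and 89.2 in KO and 79.1, 77.7 and 115.6 in KO ND6 hearts. Txnrd1 fell by 0.39 ± 0.13 log2 units (SE, 1.31-fold, edgeR adjusted p = 0.0439) in KO ND6 hearts with the Ant1 vector, where heart 37 overlapped with WT. Txnrd1 missed the threshold without heart 81, 83, 5 or 8, at an edgeR adjusted p of 0.0729, 0.24, 0.173 and 0.189, respectively, within a range of 1.57e-05 to 0.24 over its alternatives. Txnrd1 also missed it with no filter on low counts, the other groups left out of the fit and hearts 61 and 91 as Ant1 vector hearts.

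Txnip, which binds and inhibits thioredoxin and responds to glucose, spread widely between hearts of 1 group. Txnip had 601, 771, 999.6 and 880.3 in WT, 1549, 1328 and 953 in KO and 664, 826 and 593 in KO ND6 hearts (CPM) with the control vector. Txnip with the Ant1 vector had 968, 721 and 729 in WT, 706, 877, 791 and 1697 in KO and 1513, 1308 and 1213 in KO ND6 hearts, with KO heart 27 above all other hearts. Txnip rose by 0.74 ± 0.26 log2 units (SE, 1.67-fold, edgeR adjusted p = 0.0495) in KO ND6 hearts with the Ant1 vector. Txnip missed the threshold without heart 37, 81, 83, 5, 8 or 80, at an edgeR adjusted p of 0.0595, 0.147, 0.152, 0.134, 0.0861 and 0.0524, respectively, within a range of 4.87e-06 to 0.825 over its alternatives. Txnip also missed it with DESeq2's size factors, DESeq2, hearts 61 and 91 as Ant1 vector hearts, hearts 61 and 91 as control vector hearts, libraries 80a and 80b added, the library table as a covariate (limma adjusted p = 0.825) and heart 70 left out. In the fit with the table as a covariate the log2 change of Txnip was 0.09. In heart 27, the libraries of 1 table gave Txnip 1146 to 1468 CPM and those of the other 1979 to 2288 CPM, and in heart 37 they gave 932 to 1104 and 1397 to 1473 CPM.

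Glrx, glutaredoxin, which removes glutathione from proteins, was called lower with the Ant1 vector in KO hearts. Glrx had 91.7, 84.9 and 94.9 CPM in KO control hearts and 59.4, 60.6, 64.3 and 68.2 CPM in KO hearts with the Ant1 vector, without overlap. Glrx fell by 0.52 ± 0.09 log2 units (SE, 1.43-fold, edgeR adjusted p = 0.00408). Glrx stayed past the threshold without any 1 of the hearts, and its adjusted p ranged from 1.76e-13 to 0.032 over its alternatives. In WT hearts Glrx had 87.5, 74.4, 72.1 and 70.2 CPM with the control and 69.6, 66.0 and 63.8 CPM with the Ant1 vector. In KO ND6 hearts Glrx had 74.3, 68.5 and 67.7 CPM with the control and 52.7, 57.5 and 66.4 CPM with the Ant1 vector. Hearts of the vectors did not overlap in these genotypes either, and Glrx was not called in them. Vector and table of libraries cannot be told apart in any of them. Gstm4 was the other member called lower with the Ant1 vector in KO hearts, at 19.2, 21.6 and 21.1 CPM with the control and 14.4, 14.3, 14.9 and 15.1 CPM with the Ant1 vector. Gstm4 fell by 0.49 ± 0.09 log2 units (SE, 1.40-fold, edgeR adjusted p = 0.00563). Gstm4 stayed past the threshold without any 1 of the hearts, and its adjusted p ranged from 6.73e-08 to 0.0397 over its alternatives. The KO control hearts also enter the comparison in which Gstm4 was higher than in WT.

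**Figure D4:**
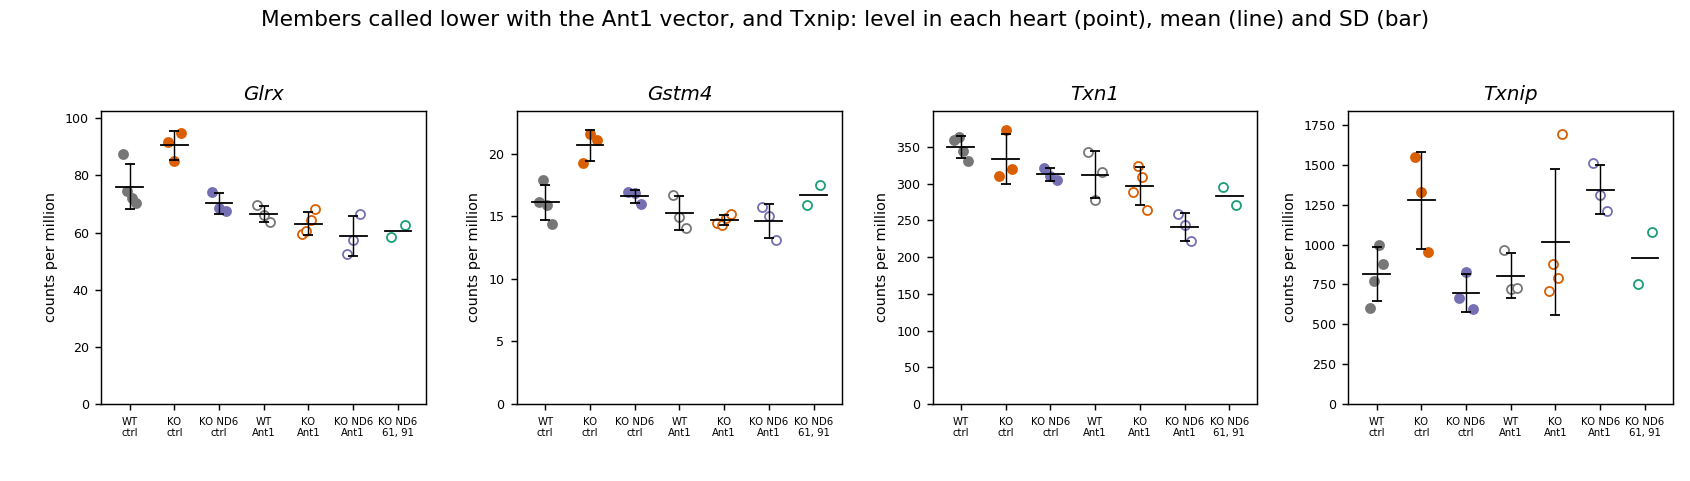
CPM values in each heart (points) for the 3 genes called lower with the Ant1 vector, and for Txnip, by genotype and vector, with the group mean (line) and SD (bar, groups of 3 or 4 hearts). Gstm4 is highest in the 3 KO control hearts. Among the 6 groups, Glrx is lower in every Ant1 vector heart than in any control vector heart of the same genotype. Txn1 is lowest in the KO ND6 hearts with the Ant1 vector, and Txnip differs widely within groups.

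The other 12 thioredoxin-domain genes, of which 11 were tested, include protein folding enzymes of the endoplasmic reticulum. Txndc9 had 39.2, 44.3, 44.6 and 41.5 in WT, 49.0, 59.1 and 58.7 in KO and 49.4, 52.9 and 55.4 in KO ND6 hearts (CPM) with the control vector and rose by 0.39 ± 0.12 log2 units (SE, 1.31-fold, edgeR adjusted p = 0.0309) in KO hearts. Txndc9 missed the threshold without heart 23, 36, 38 or 70, at an edgeR adjusted p of 0.0772, 0.113, 0.123 and 0.062, respectively, within a range of 0.00134 to 0.13 over its alternatives. Txndc9 also missed it with Xist as a covariate and the library table as a covariate (limma adjusted p = 0.13). Txnl1, a thioredoxin-like protein of the proteasome, had 75.6, 62.6 and 71.3 in WT, 68.7, 66.3, 72.7 and 47.7 in KO and 55.7, 56.5 and 41.0 in KO ND6 hearts (CPM) with the Ant1 vector and fell by 0.45 ± 0.16 log2 units (SE, 1.369-fold, edgeR adjusted p = 0.0445) in KO ND6 hearts. Txnl1 missed the threshold without heart 37, 83 or 80, at an edgeR adjusted p of 0.197, 0.111 and 0.141, respectively, within a range of 6.89e-06 to 0.202 over its alternatives. Txnl1 also missed it with no filter on low counts, the other groups left out of the fit, the library table as a covariate (limma adjusted p = 0.202) and hearts 27 and 37 left out. Txndc12, Txnl4a and Txndc15 were also called lower there, at log2 changes of -0.38, -0.33 and -0.27. Txndc15 missed the threshold without heart 37, 81 or 80, and with the library table as a covariate the adjusted p was 0.172 for Txndc12, 0.305 for Txnl4a and 0.511 for Txndc15.

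Txndc2, a testis gene, was near the detection limit in all hearts. Its raw counts were 0, 0, 3 and 2 in the WT control hearts and 5, 11 and 3 in the KO control hearts. With the Ant1 vector they were 0, 0 and 2 in WT and 8, 10 and 14 in KO ND6 hearts. Txndc2 passed in both comparisons, at edgeR adjusted p of 0.0479 and 0.0163, on at most 14 counts a heart, and no fold is given. Txndc2 missed the threshold without heart 23, 24, 35, 36 or 70, at an edgeR adjusted p of 0.107, 0.111, 0.0674, 0.253 and 0.054, respectively, within a range of 0.0296 to 0.388 over its alternatives. Txndc2 also missed it with no filter on low counts, DESeq2, Xist as a covariate and heart 8 left out. With the Ant1 vector, Txndc2 missed the threshold without heart 81 or 80, at an edgeR adjusted p of 0.0798 and 0.0578, respectively, within a range of 0.0107 to 0.0798 over its alternatives.

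Superoxide dismutases and catalase, the first line of defence, were called nowhere. Sod1, the copper and zinc enzyme of the cytosol, had 1155, 1050.5, 1018 and 986 in WT, 1020.1, 1104 and 971 in KO and 972, 1148 and 964 in KO ND6 hearts (CPM). Sod2, the manganese enzyme of the mitochondrial matrix, had 1591, 1613, 1569 and 1310.1 in WT, 1850.1, 1543 and 1822 in KO and 1672, 1646 and 1479 in KO ND6 hearts (CPM), lowest in WT heart 70. Cat, the peroxisomal catalase, had 32.0, 32.9, 36.01 and 42.8 in WT, 38.2, 48.1 and 43.4 in KO and 36.2, 34.8 and 48.8 in KO ND6 hearts (CPM). Log2 changes in KO hearts were -0.03 ± 0.08 (edgeR adjusted p = 0.863) for Sod1, 0.19 ± 0.09 (edgeR adjusted p = 0.145) for Sod2 and 0.27 ± 0.13 (edgeR adjusted p = 0.175) for Cat. In KO ND6 hearts they were -0.03 ± 0.08 (edgeR adjusted p = 0.845), 0.07 ± 0.09 (edgeR adjusted p = 0.652) and 0.15 ± 0.13 (edgeR adjusted p = 0.495). Sod3, the extracellular enzyme, lay between 88.3 and 126 CPM in all hearts.

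**Figure D5:**
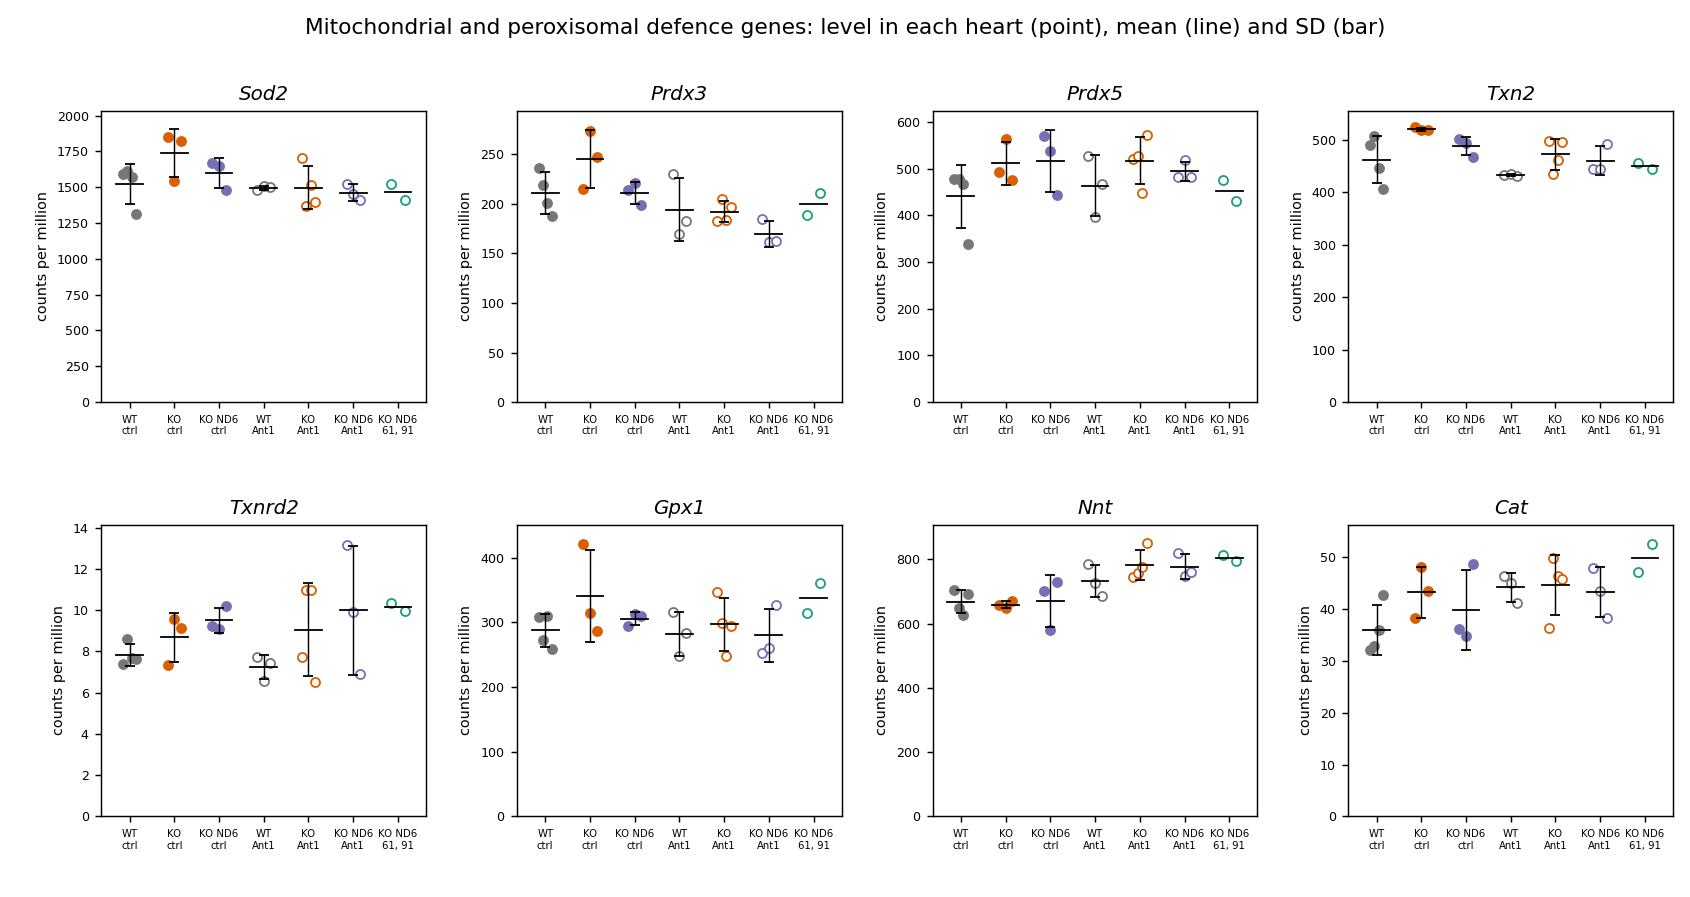
CPM values in each heart (points) for defence genes of mitochondria and peroxisomes and for Gpx1, by genotype and vector, with the group mean (line) and SD (bar, groups of 3 or 4 hearts). None of the 8 genes was called in any pairwise comparison, and WT control heart 70 is the lowest WT heart for Sod2 and Prdx5.

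Mt1, a metallothionein that binds zinc and copper and scavenges radicals, had 346, 602, 757 and 543 in WT, 737, 549.5 and 686 in KO and 427, 425 and 447 in KO ND6 hearts (CPM) with the control vector. The WT hearts spanned the values of both Ant1-null groups, while the KO hearts lay above the KO ND6 hearts. The KO ND6 against KO change was -0.60 ± 0.22 (edgeR adjusted p = 0.193) and did not pass.

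Whether the genotype changes differ between vectors was tested as an interaction. No member was called by edgeR for KO (background 0.5% in either direction) or for KO ND6 (0.273%), and 0 and 0 were called by DESeq2. An unadjusted edgeR p under 0.05 was reached by 7 and 4 of 58 members, beside 2259 and 1615 of all 15403 genes. In all, 7 members were called in the same direction in both KO ND6 comparisons, which share no heart. These were Gss, Gsto1, Prdx2 and Prdx6, higher, and Gsta3, Gstk1 and Gstt1, lower, making 77.8% of the 9 called with the control vector and 38.9% of the 18 called with the Ant1 vector. Over all genes the shares were 55.4% and 36.1%. For KO the shares were 14.3% of 7 and 14.3% of 7 members, and 30.4% and 44.2% of all called genes.

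Lists of genes around these pathways are given by their counts. Of all tested genes, 8.19% and 6.23% were called higher and lower in KO and 6.71% and 5.97% in KO ND6 control hearts. The shares were 5.37% and 4.53% in KO and 10.8% and 8.71% in KO ND6 hearts with the Ant1 vector. Among 18 tested NRF2 target genes outside the members, none was called higher and 2 lower in KO, and none higher and 1 lower in KO ND6 control hearts. Of these targets, the Ant1 vector comparisons called 0 higher and 1 lower in KO and 1 higher and 2 lower in KO ND6 hearts. Osgin1 and Tkt were the lower genes in KO, falling by 0.90 ± 0.20 (edgeR adjusted p = 0.00348) and 0.65 ± 0.15 (edgeR adjusted p = 0.00674) on the log2 scale. Between KO ND6 and KO control hearts Osgin1 was higher in KO ND6, by 1.10 ± 0.21 (edgeR adjusted p = 0.00978). Its means there were 15.4 and 7.18 CPM, beside 13.4 CPM in WT. Between vectors, Osgin1 was higher with the Ant1 than with the control vector in KO hearts, by 0.67 ± 0.20 (edgeR adjusted p = 0.048). In KO ND6 hearts it was lower with the Ant1 than with the control vector, by 0.84 ± 0.20 (edgeR adjusted p = 0.031). Of 11 NRF2 regulators, 1 was higher and 2 were lower in KO, and 3 were higher in KO ND6 control hearts. Of the regulators, the Ant1 vector comparisons called 2 higher and 0 lower in KO and 4 higher and 0 lower in KO ND6 hearts. Sqstm1, which encodes p62, a protein that can displace NRF2 from KEAP1, had 574, 627, 658 and 642 CPM in the WT and 851, 859 and 972 CPM in the KO ND6 control hearts. Sqstm1 in KO ND6 hearts rose by 0.52 ± 0.10 log2 units (SE, 1.43-fold, edgeR adjusted p = 0.00198) with the control vector and by 0.37 ± 0.11 log2 units (SE, 1.29-fold, edgeR adjusted p = 0.0213) with the Ant1 vector. In KO hearts with the Ant1 vector Sqstm1 rose by 0.41 ± 0.10 log2 units (SE, 1.33-fold, edgeR adjusted p = 0.0149).

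Of 12 NADPH-supplying genes, 2 were higher and 2 lower in KO and none higher and 2 lower in KO ND6 control hearts (background 8.19% higher and 6.23% lower in KO, 6.71% and 5.97% in KO ND6). Of the NADPH list, the Ant1 vector comparisons called 0 higher and 2 lower in KO and 0 higher and 1 lower in KO ND6 hearts. Among 17 genes of glutathione transport, turnover and precursors, 1 was higher and 1 lower in KO and none higher and 2 lower in KO ND6 control hearts. Of this list, the Ant1 vector comparisons called 1 higher and 1 lower in KO and 1 higher and 2 lower in KO ND6 hearts. Slc25a39, the mitochondrial glutathione importer, rose by 0.42 ± 0.09 log2 units (SE, 1.34-fold, edgeR adjusted p = 0.0031) in KO control hearts and by 0.29 ± 0.09 log2 units (SE, 1.23-fold, edgeR adjusted p = 0.0456) in KO hearts with the Ant1 vector. Cth, which makes cysteine, fell by 0.69 ± 0.17 log2 units (SE, 1.62-fold, edgeR adjusted p = 0.0113) in KO ND6 control hearts and by 1.08 ± 0.19 log2 units (SE, 2.12-fold, edgeR adjusted p = 0.000437) in KO ND6 hearts with the Ant1 vector. With that vector Cth was also lower in KO than in WT hearts, by 0.91 ± 0.17 log2 units (SE, 1.88-fold, edgeR adjusted p = 0.00174). In KO hearts it was lower with the Ant1 than with the control vector, by 0.70 ± 0.17 log2 units (SE, 1.62-fold, edgeR adjusted p = 0.0234).

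Among 11 other glutathione-linked transferases and glutaredoxins, 2 were higher and 1 lower in KO and 1 higher and 1 lower in KO ND6 control hearts (background 8.19% higher and 6.23% lower in KO, 6.71% and 5.97% in KO ND6). Of that list, the Ant1 vector comparisons called 1 higher and 1 lower in KO and 1 higher and 1 lower in KO ND6 hearts. Hagh, which releases glutathione in the disposal of methylglyoxal, had 145, 160.2, 154 and 100.8 in WT, 254, 233 and 253 in KO and 219.8, 245 and 215 in KO ND6 hearts (CPM) with the control vector. Hagh rose by 0.82 ± 0.11 log2 units (SE, 1.76-fold, edgeR adjusted p = 5.7e-05) in KO and by 0.69 ± 0.11 log2 units (SE, 1.62-fold, edgeR adjusted p = 0.000408) in KO ND6 control hearts, and by 0.66 ± 0.12 log2 units (SE, 1.58-fold, edgeR adjusted p = 0.000983) and 0.85 ± 0.12 log2 units (SE, 1.804-fold, edgeR adjusted p = 8.42e-05) with the Ant1 vector. Of 7 tested genes of selenoprotein synthesis and selenoproteins, 3 were higher (Pstk, Sephs2 and Msrb1) and 1 lower (Dio2) in KO, and 1 was higher in KO ND6 control hearts. Of the selenoprotein list, the Ant1 vector comparisons called 1 higher and 0 lower in KO and 4 higher and 0 lower in KO ND6 hearts. Sephs2, which makes the selenium donor, rose by 0.52 ± 0.09 log2 units (SE, 1.44-fold, edgeR adjusted p = 0.000701) in KO and by 0.48 ± 0.09 log2 units (SE, 1.40-fold, edgeR adjusted p = 0.00197) in KO ND6 control hearts.

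Of 13 genes of methionine sulfoxide repair and other peroxide defence, 2 were higher and 1 lower in KO and 2 higher in KO ND6 control hearts (background 8.19% higher and 6.23% lower in KO, 6.71% and 5.97% in KO ND6). Of the repair list, the Ant1 vector comparisons called 1 higher and 0 lower in KO and 1 higher and 2 lower in KO ND6 hearts. Of 13 tested genes of zinc, copper and iron handling, 2 were higher and 2 lower in KO and 2 lower in KO ND6 control hearts. Of the metal list, the Ant1 vector comparisons called 0 higher and 3 lower in KO and 0 higher and 3 lower in KO ND6 hearts. Among 15 tested oxidant-producing enzymes, 1 was higher and 1 lower in each of the 2 control vector comparisons. Of the oxidant list, the Ant1 vector comparisons called 1 higher and 1 lower in KO and 1 higher and 3 lower in KO ND6 hearts. Maob, a monoamine oxidase of the outer mitochondrial membrane that forms hydrogen peroxide, had 74.6, 61.002, 61.7 and 63.5 in WT, 35.2, 32.6 and 30.6 in KO and 34.5, 36.9 and 33.9 in KO ND6 hearts (CPM) with the control vector, with both Ant1-null groups below WT. Maob fell by 0.99 ± 0.09 log2 units (SE, 1.99-fold, edgeR adjusted p = 2.95e-07) in KO and by 0.89 ± 0.09 log2 units (SE, 1.86-fold, edgeR adjusted p = 1.51e-06) in KO ND6 control hearts, and by 0.99 ± 0.09 log2 units (SE, 1.99-fold, edgeR adjusted p = 3.55e-07) and 1.20 ± 0.10 log2 units (SE, 2.30-fold, edgeR adjusted p = 6.24e-08) with the Ant1 vector. Nos1, the neuronal nitric oxide synthase, had 0.506, 0.446, 1.18 and 1.11 CPM in the WT, 14.5, 12.6 and 11.2 CPM in the KO and 10.3, 5.50 and 11.6 CPM in the KO ND6 control hearts. Nos1 rose by 3.97 ± 0.30 log2 units (SE, 15.7-fold, edgeR adjusted p = 7.77e-09) in KO and by 3.49 ± 0.30 log2 units (SE, 11.2-fold, edgeR adjusted p = 7.07e-08) in KO ND6 control hearts. Nos1 with the Ant1 vector rose by 2.57 ± 0.31 log2 units (SE, 5.95-fold, edgeR adjusted p = 1.6e-05) in KO and by 2.63 ± 0.32 log2 units (SE, 6.20-fold, edgeR adjusted p = 1.08e-05) in KO ND6 hearts.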

How the data were processed

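RNA from mouse hearts was measured in AmpliSeq libraries run on an Ion Torrent sequencer, per the labels. The authors deposited whole-number counts of reads for each amplicon. Build mm10 is named in the submitters' processing notes, and the aligner, counter and filters are not stated there or in the labels. There are 14 tables of 8 libraries each, and all 112 columns could be matched to a library by its label. Libraries of a heart were summed (110 libraries, 22 hearts), because libraries of 1 heart are repeat measurements. Libraries 80a and 80b, in which title and treatment label disagree, entered no group. Genes were tested with edgeR 4.0.16 (quasi-likelihood F-test, filterByExpr by group, TMM scaling with factors of 0.959 to 1.06) in 1 fit over 7 groups with a shared spread, and p-values were adjusted by the Benjamini-Hochberg method over all 15403 tested amplicons. CPM values were computed here with TMM-scaled totals. They depend on amplicon efficiency, so levels are not compared between genes.

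DESeq2 1.42.0, limma 3.58.1 (voom on single libraries, with table as covariate and a correlation of 0.197 between libraries of a heart) and other settings served as alternatives. The pipeline was tested on simulated data with 200 changed genes, where many of the smaller changes were missed, so a gene that was not called is not shown to be unchanged.

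The members and the gene lists were chosen with earlier results of these data known. Values of all hearts are given for called members over 5 CPM in the higher group (up to the 8 largest rises and falls in each comparison) and, under the control vector, for a fixed set of core enzymes whatever their p. Hearts are told apart by their title numbers, and since the labels do not say that these are animals, p-values measure the spread between these samples only. The authors' tables had 27 gene symbols turned into dates, which were restored. Promoter sequences come from RefSeq (GRCm38.p6). The 3 single-nucleus samples are not analysed here.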

Additional observations from a re-analysis of the deposited data

Results flagged for a closer look

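In 116 groups of 4 hearts (58 genes in 2 groups), 8 values stood apart from the other 3 hearts by a gap past Dixon's critical value for their number, and chance flags about 1 in 20 groups. Of these, 5 were in WT control heart 70, which was sequenced in other tables than the other 3 hearts of its group. In heart 70, Gpx2 stood at 6.74 CPM where the other hearts had 0, while Sod2 stood at 1310.1 CPM, Prdx5 at 339.5 CPM, Txndc17 at 79.7 CPM and Txnl1 at 54.1 CPM, each below the others. Among KO hearts with the Ant1 vector, Mt1 was high in heart 20 at 591 CPM, Gpx2 was high in heart 22 at 1.64 CPM, and Txndc9 was low in heart 27 at 34.9 CPM.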

How the results depend on the processing

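No paired analysis was possible because the groups compared share no heart numbers. No result reversed its direction under any alternative. Of 44 gene calls, 11 passed in every alternative, and over all alternatives the gene results kept their side of the threshold 681 times and lost it 171 times. Leaving out 1 heart at a time gave 3 to 8 called members for KO against WT and 4 to 11 for KO ND6 against WT under the control vector, 2 to 6 for the Ant1 vector in KO, 0 to 2 for the Ant1 vector in KO ND6, 2 to 6 for KO against WT and 9 to 15 for KO ND6 against WT under the Ant1 vector, and 0 in the other comparisons.

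Counts of called members moved by over 1.5 times as follows, and the cause was not tested. Taking each library as a replicate, which treats repeat measurements as animals, gave 29 (KO) and 21 (KO ND6) against WT, 17 for KO ND6 against KO, 27, 30 and 10 for the vector in KO, KO ND6 and WT, 26 for KO against WT with the Ant1 vector, and 9 and 9 for the interactions. With the library table as a covariate, which could not be fitted for the pairwise vector comparisons, KO against WT had 17, KO ND6 against KO had 10 and the KO interaction 3. DESeq2 called 1 for KO ND6 against KO, 7 for the vector in KO and 4 for the vector in KO ND6. DESeq2's size factors in edgeR gave 4 and 2 for the last 2 of these. With the compared groups only, KO ND6 against KO had 4 and KO ND6 against WT with the Ant1 vector 10. Xist as a covariate gave 1 for KO ND6 against KO and 2 for the vector in KO ND6.

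Hearts 61 and 91 as control vector hearts gave 16 for KO ND6 against WT, 4 for KO ND6 against KO, 4 for the vector in KO and 0 for the vector in KO ND6, and as Ant1 vector hearts they gave 0 for the last. Adding libraries 80a and 80b gave 2 there. Alternatives chosen after seeing the data were leaving out hearts 27 and 37, heart 8, or heart 70. Without hearts 27 and 37 the counts were 11 for KO against WT under either vector, 2 for KO ND6 against KO, 7 and 5 for the vector in KO and KO ND6, and 1 for the KO ND6 interaction. Without heart 8 the vector in KO ND6 had 0, and without heart 70 the vector had 6 in KO and 4 in KO ND6. Heart totals ran from 16827518 to 54779297 counts, and how far depth limits the calls was not tested.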

Other observations

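Hearts 61 and 91, KO ND6 hearts whose title and treatment label disagree on the vector, had Slc25a4 at 169 and 151 CPM. Prdx2 stood there at 470.0 and 453 CPM, above every WT heart, and Gstt1 at 10.6 and 11.1 CPM, below every WT heart. Txn1, lower with the Ant1 vector in KO ND6 hearts, stood at 296 and 271 CPM in them, between the 221 to 259 CPM of the KO ND6 hearts with the Ant1 vector and the 306 to 322 CPM of those with the control vector. Srxn1 differed between them, at 36.5 and 18.6 CPM.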
